A study of Mus musculus with 12 samples.

Results

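The deletion of *p53* from the intestinal epithelium of CBPAA mice was examined across all genes, as 3 libraries of colonic crypts from CBPAAp53ΔIEC mice against 3 from CBPAAp53-floxed mice. Both groups were taken by their sample titles, and they make up 6 of the 12 libraries of the series. The other 6 libraries are the same pair of groups in CBPWT mice and show where the deletion had a different effect. They also entered the filter on low counts and the estimate of the spread between mice, while each fold change rests on the groups it compares. All mice were 8-week-old C57BL/6J females, crypts were released from the colon with EDTA, and polyadenylated RNA was sequenced with 1 library per mouse.

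CBP, encoded by *Crebbp*, is an acetyltransferase that is recruited to promoters by many transcription factors, among them p53 and NF-κB. In CBPAA mice, a pair of serines that IKK phosphorylates in CBP are replaced by alanines in every cell of the body, in the floxed and in the ΔIEC group alike. CBPAAp53-floxed mice carry *Trp53* flanked by loxP sites and have an intact gene, whereas in CBPAAp53ΔIEC mice Cre under the Villin promoter removes the floxed part from intestinal epithelial cells, so stroma and leukocytes keep p53. p53, the product of *Trp53*, is kept low by MDM2 in unstressed cells and switches on genes for cell cycle arrest, DNA repair and apoptosis when it accumulates. It also lowers many mitotic genes indirectly, through p21 and a repressor complex that binds their promoters. In the colon, stem and transit-amplifying cells at the crypt base divide continuously and give rise to absorptive colonocytes, goblet, tuft and enteroendocrine cells.

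The CBPAAp53-floxed libraries held 13156325, 18029125 and 12176634 counts on genes, and the CBPAAp53ΔIEC libraries 13873133, 13264376 and 14673926. Across the 14610 genes tested, log2 levels of CBPAAp53-floxed replicates correlated with Pearson's r of 0.974, 0.975 and 0.985. Those of CBPAAp53ΔIEC replicates 1 and 2 correlated with r = 0.983, replicates 1 and 3 with 0.978, and replicates 2 and 3 with 0.966. These correlations run across genes, which are not independent replicates. Levels are given as TPM, a share of all transcripts that is set per gene length, and differences as log2 fold changes with standard error (SE) from edgeR's quasi-likelihood test. A gene was called where its adjusted p was under 0.05 and its log2 fold change was beyond 0.5 in either direction. Bulk RNA cannot tell fewer cells of a type from less RNA per cell, which holds for every level below. Genes were named by fixed rules of p, size and list, and the exceptions, such as *Cdkn1a*, *Mdm2*, *Ccng1*, *Plk2*, *Dbp*, *Cirbp*, *Lgr5*, *Lyz1* and *Epcam*, were added for their roles after values had been seen.

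Some libraries stood apart from others of their group. CBPAAp53ΔIEC replicate 3 lay close to the floxed libraries in many gene lists in which replicates 1 and 2 did not. *Xist*, the RNA that coats the inactive X chromosome, had 61 counts in CBPAAp53-floxed replicate 1, against 9046 and 8948 in replicates 2 and 3 and 14258, 14479 and 13946 in the CBPAAp53ΔIEC libraries. *Ddx3y*, *Uty* and *Kdm5d* of the Y chromosome had 0 counts in all 6. A list of small intestine and regional genes summed to 2462, 4601 and 1868 TPM in the floxed and 4095, 1458 and 7754 TPM in the ΔIEC libraries. Its most abundant member, *Fabp2*, an enterocyte fatty acid binder, was at 1547, 2274, 1142, 942, 613 and 1824 TPM in the same order, and *Lyz1*, the Paneth cell lysozyme, at 0.796, 123, 2.60, 410, 13.7 and 789 TPM. MHC class II genes summed to 301, 311 and 37.1 TPM in the floxed and 243, 43.3 and 399 TPM in the ΔIEC libraries. In both lists the groups overlapped and the high and low libraries were found in each group. Each library name ends in a number whose meaning is not stated in the sources used here. That number is over 200 in CBPAAp53ΔIEC replicates 1 and 2 and CBPWTp53ΔIEC replicates 2 and 3, and under 200 in CBPAAp53ΔIEC replicate 3, CBPWTp53ΔIEC replicate 1 and all 6 floxed libraries. In both genotypes the ΔIEC libraries numbered over 200 held the highest summed cell cycle levels, and since no floxed library has such a number, what the number stands for and the deletion cannot be told apart in them. The part of the regional and MHC differences in the results below was not tested, and the count of calls without each library is given beside them.

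The libraries held the RNA of epithelium. *Epcam*, an epithelial adhesion protein, was at 1373, 1410 and 1011 TPM in floxed and 1287, 1226 and 1218 TPM in ΔIEC crypts. *Krt8*, a keratin and the most abundant of 20 epithelial markers, was at 5613, 6169 and 4315 against 4888, 4974 and 5294 TPM, so that neither gene separated the groups. The 20 markers summed to 27870, 31400 and 22230 TPM in floxed and 24420, 23860 and 26580 TPM in ΔIEC crypts. Stroma markers summed to 9.53, 8.49 and 7.25 against 9.10, 7.62 and 8.81 TPM, led by *Pdgfrb*, and only 5 of 20 were abundant enough to test. *Col1a1* was at 0 to 0.0587 TPM and *Cdh5*, the cadherin of endothelium, at 0 in all 6 libraries. Endothelium markers summed to 7.29, 7.44 and 9.03 against 8.48, 7.11 and 8.09 TPM, led by *Lyve1*. Leukocyte markers summed to 112, 108 and 75.0 against 101, 90.2 and 114 TPM. Of 31 listed, 18 were tested. Their largest part was *Cd14*, at 83.1, 55.4 and 45.4 against 51.0, 47.0 and 48.9 TPM, while *Ptprc*, the leukocyte antigen CD45, was at 0.589 to 1.26 TPM. Of 10 glia and muscle markers 2 were tested, and of 5 blood markers none. The part of these cells in the results was not tested. Among the epithelial markers *Krt18*, the keratin partner of *Krt8*, was at 1002, 997 and 961 against 734, 749 and 798 TPM, without overlap, and DESeq2 called it (log2 fold change -0.51, SE 0.14, adjusted p = 0.0492) while edgeR did not (adjusted p = 0.32).

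*Trp53* itself was measured first, since it checks the labels. *Trp53* (ENSMUSG00000059552, GRCm38 chromosome 11, 69580359 to 69591873, plus strand) was at 33.5, 30.8 and 23.3 TPM in floxed and 5.05, 4.66 and 6.13 TPM in ΔIEC crypts. Every ΔIEC library was below every floxed library, with a log2 fold change of -2.58 (SE 0.22, adjusted p = 0.000401 from edgeR), a 6.00-fold fall. *Trp53-ps*, a processed pseudogene of *Trp53* on chromosome 17, had 24, 19 and 8 counts in floxed libraries and 0 in each ΔIEC library, at least 17.2-fold lower against a floor of 3 counts over the group (adjusted p = 0.0887 from edgeR). The pseudogene is a near copy of *Trp53*, so reads may have been shared between them, and its level is uncertain. *Crebbp* was at 9.71, 6.92 and 7.44 TPM against 8.64, 10.3 and 8.93 TPM, with a log2 fold change of 0.09 (SE 0.13, adjusted p = 0.784 from edgeR) and overlapping groups.

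Across all genes, edgeR called 4, which is 0.0274% of the genes tested, and all were lower in ΔIEC crypts. These were *Trp53*, *Ephx1*, *Eda2r* and *Gm10736*. No gene was called higher by edgeR, although 1051 genes were higher and 790 lower at an unadjusted p under 0.05, or 7.19% and 5.41% of the genes tested. DESeq2 on all 12 libraries called 75 genes, 57 higher and 18 lower (0.39% and 0.123%). Leaving out CBPAAp53ΔIEC replicate 3 raised the edgeR calls to 326 (2.19% of the genes then tested), of which 262 were higher and 64 lower (1.76% and 0.43%), whereas leaving out any other library left 1 to 4. At an unadjusted p under 0.05, 11.1% of the genes were higher and 8.78% lower in that fit. All 4 edgeR calls and 64 of the 75 DESeq2 calls, the latter 19.6% of the 326, were also made without replicate 3. The median log2 fold change of all genes was 0.02 after TMM scaling. In fits added after the values had been seen, edgeR called 4 genes from the 8 libraries numbered under 200, where replicate 3 stands alone for CBPAAp53ΔIEC and is assumed to vary like the other groups. *Trp53* and *Ephx1* were among those 4 calls (log2 fold change -2.33 and -2.37, adjusted p = 0.00314 and 0.0417). *Gm10736*, with a log2 fold change of -1.14 beside -1.08 with all libraries, and *Eda2r*, with 1 count in replicate 3, were not (adjusted p = 0.324 and 0.236). With the ΔIEC libraries numbered under 200 left out instead, edgeR called 1205 genes, 743 higher and 462 lower.

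**Figure D1:**
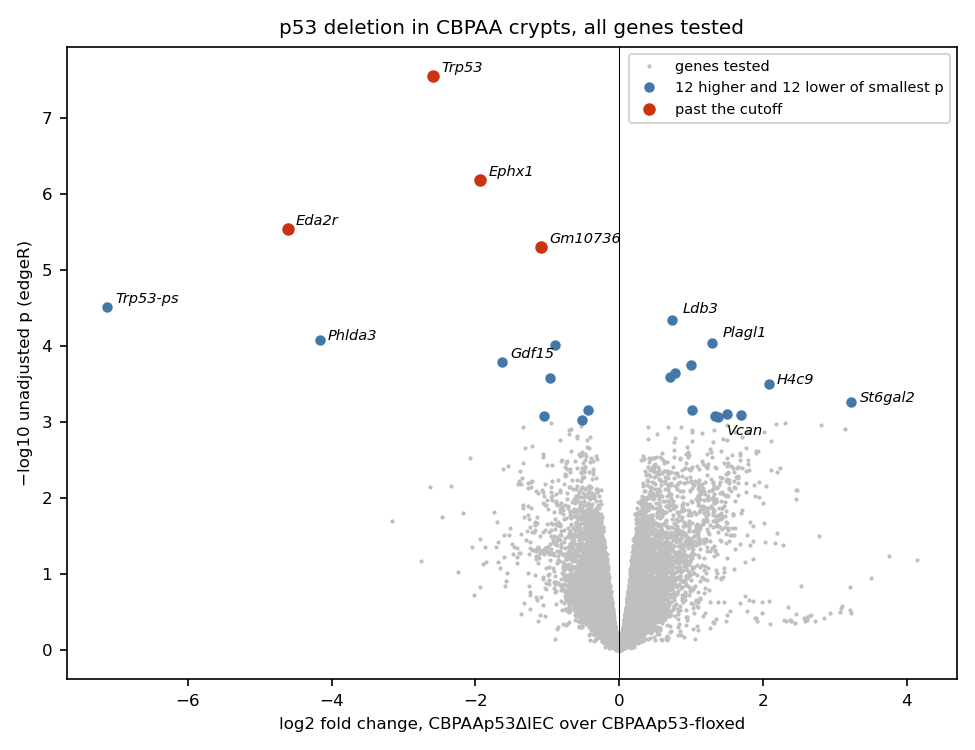
Each point is 1 of 14610 genes, with the log2 fold change of CBPAAp53ΔIEC over CBPAAp53-floxed crypts on the x axis and −log10 of edgeR's unadjusted p on the y axis. The 4 called genes, in red, all lie on the left, and *Trp53-ps* and *Phlda3* lie left of *Trp53* with larger p.

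edgeR called 2 p53 target genes lower, and both lost most of their RNA. Both calls were lost without CBPAAp53ΔIEC replicate 1 and with edgeR on the 6 libraries alone, where adjusted p from edgeR was 0.0623 to 0.113, and that of *Eda2r* also without CBPAAp53-floxed replicate 3 and with the 8 libraries numbered under 200. *Ephx1*, microsomal epoxide hydrolase (chromosome 1, 180976210 to 181020904, minus strand), was at 18.9, 21.9 and 23.2 TPM in floxed and 6.28, 7.99 and 4.42 TPM in ΔIEC crypts, a log2 fold change of -1.93 (SE 0.22, adjusted p = 0.00475 from edgeR). *Eda2r*, a receptor of ectodysplasin (chromosome X, 97333840 to 97377216, minus strand), had 23, 27 and 29 counts in floxed libraries and 0, 2 and 1 in ΔIEC libraries. The groups of both genes were far apart, and floxed replicate 1, which stood apart in *Xist*, lay with the other floxed libraries in the X-linked *Eda2r*. The ratio of floxed to ΔIEC counts of *Eda2r* was 26.6, with a 95% interval of 8.77 to 132 that covers counting error only (adjusted p = 0.0138 from edgeR). *Phlda3*, a repressor of AKT, had 19, 30 and 12 counts against 0, 3 and 0, a ratio of 20.5 (95% interval 6.7 to 102), and did not pass the adjusted threshold (adjusted p = 0.154 from edgeR). *Gdf15*, a stress-induced cytokine, was at 6.19, 4.82 and 3.34 against 1.5, 1.77 and 1.71 TPM, without overlap, and its log2 fold change of -1.63 passed in DESeq2 (adjusted p = 0.0146) but not in edgeR (adjusted p = 0.233). DESeq2 on all 12 libraries called 2 listed targets lower, *Ephx1* and *Gdf15*, beside 0.123% of all genes. It did not call *Eda2r*, for which no adjusted p from DESeq2 is given here, so the absent call is not read as a negative result.

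Most p53 targets were not called. Of 60 listed, 55 were tested, 2 were called (*Ephx1* and *Eda2r*), beside 0.0274% of all genes, and the median log2 fold change was -0.18. At an unadjusted p under 0.05, 13 were lower and 1 higher, beside 5.41% and 7.19% of all genes. Without CBPAAp53ΔIEC replicate 3, edgeR called 6 lower and 1 higher, beside 0.43% and 1.76% of all genes, 17 were lower and 2 higher at an unadjusted p under 0.05, beside 8.78% and 11.1%, and the median was -0.20. In 13 of the 55, all ΔIEC libraries lay below all floxed libraries by CPM, beside 7.18% of all genes. *Ccng1*, cyclin G1, was at 101, 72.4 and 94.3 against 69.2, 72.7 and 70.6 TPM, and *Plk2*, a polo-like kinase, at 18.4, 13.6 and 16 against 11.9, 11.4 and 13.5 TPM. The log2 fold changes were -0.46 (SE 0.13) and -0.51 (SE 0.15), and the adjusted p from edgeR was 0.32 for both. *Cdkn1a*, which encodes the CDK inhibitor p21, was at 214, 191 and 120 against 139, 164 and 184 TPM, with overlapping groups and a log2 fold change of -0.22 (SE 0.20, adjusted p = 0.651 from edgeR). *Mdm2*, the ubiquitin ligase of p53, was at 24.1, 19.7 and 17.4 against 24.6, 26.1 and 21.7 TPM (log2 fold change 0.12, SE 0.12, adjusted p = 0.682 from edgeR). *Gpx1*, a glutathione peroxidase and the most abundant gene of the list, was at 400, 451 and 372 against 448, 432 and 389 TPM. The exception on the higher side was *Gtse1*, a mitotic gene, at 3.52, 2.48 and 2.26 against 10.7, 10.6 and 3.08 TPM, in which replicates 1 and 2 stood apart and replicate 3 did not. Of 26 regulators of p53, 23 were tested, *Trp53* alone was called, and the median was 0.07. Without replicate 3, edgeR called 2 higher and 1 lower, beside 1.76% and 0.43% of all genes.

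**Figure D2:**
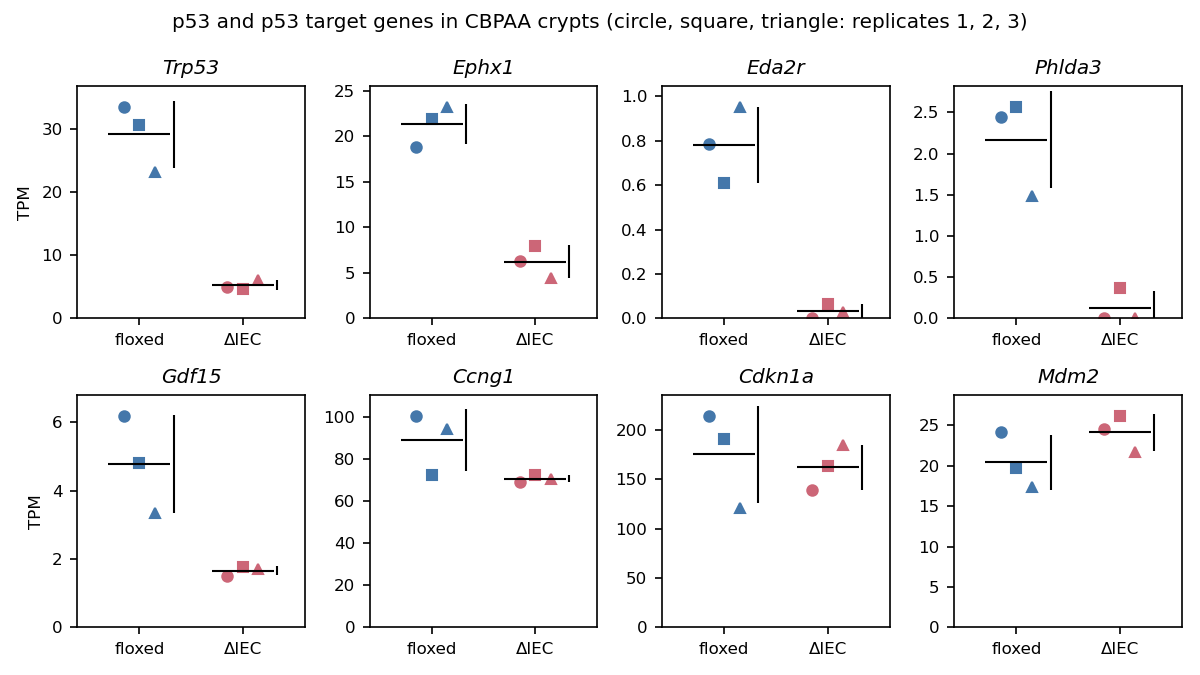
The panels show the TPM of 8 genes on the y axis for the 3 CBPAAp53-floxed (blue) and 3 CBPAAp53ΔIEC libraries (red), with the mean as a line and the SD as a bar. *Trp53*, *Ephx1*, *Eda2r*, *Phlda3* and *Gdf15* were low in every ΔIEC library, including replicate 3 (triangle), while *Cdkn1a* and *Mdm2* overlapped.

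The promoters of the listed targets were searched for the p53 response element, a pair of decamers with a spacer of up to 13 bases and at most 2 mismatches outside the fixed central bases of each decamer. The windows run from 250 bases before to 50 after each start site (RefSeq, GRCm38.p6), and 51 of the 60 targets have one. The element was found in windows of 8 of these 51 genes (15.7%), beside 2.47% of 27025 genes with a window. The 51 genes have 72 windows and the 27025 genes 32851, and by window the shares were 11.1% and 2.12%. The list holds known p53 targets, so a higher share is not independent of how it was chosen. The 4 targets with the fewest mismatches are shown 5′ to 3′ on the gene's strand with 10 bases on each side, since they bear the match that *Ephx1*, *Eda2r*, *Phlda3* and *Gdf15* lack in this window, and the decamers are in capitals:
Cdkn1a, chr17:29090896-29090947, plus strand, 0 mismatches: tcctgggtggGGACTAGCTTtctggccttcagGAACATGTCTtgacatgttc
Rps27l, chr9:66946286-66946325, plus strand, 1 mismatch: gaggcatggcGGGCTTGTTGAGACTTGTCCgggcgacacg
Pml, chr9:58249911-58249957, minus strand, 1 mismatch: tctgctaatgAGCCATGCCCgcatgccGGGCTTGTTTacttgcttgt
Gtse1, chr15:85859935-85859974, plus strand, 1 mismatch: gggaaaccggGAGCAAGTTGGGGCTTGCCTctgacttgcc
None of these 4 genes, named for the match or their role and not by p, was called. *Rps27l*, a ribosomal protein paralog, was at 50.7, 106 and 59.5 TPM in floxed and 66.2, 60.9 and 46.1 TPM in ΔIEC crypts, and *Pml*, the nuclear body protein, at 21.6, 19.3 and 15.2 against 26.7, 22.7 and 21.8 TPM. Capitals mark only the pair with the fewest mismatches. In *Cdkn1a*, the 10 bases that directly follow the second decamer also make a decamer with 1 mismatch, so another pair without a spacer lies there. A window without a match says only that these letters are not in it.

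Of the other genes with the smallest p on the lower side, *Klhdc7a*, a kelch domain gene, was at 11.4, 7.10 and 9.41 TPM in floxed and 4.59, 5.45 and 6.31 TPM in ΔIEC crypts (log2 fold change -0.89, SE 0.16). *Krt23*, a keratin, was at 22.2, 28.0 and 22.6 against 12.3, 12.5 and 16.4 TPM (-0.96, SE 0.19). Neither overlapped, and both were called by DESeq2 (adjusted p = 0.00186 and 0.0095) but not by edgeR (adjusted p = 0.154 and 0.271). *Pla2g10os*, an antisense RNA of *Pla2g10*, was at 74.7, 71.2 and 45.0 against 28.0, 38.4 and 34.6 TPM (-1.04, SE 0.24). Whether the counting used strand is not given in the sources used here, so its reads cannot be told from those of *Pla2g10*. Differences were smaller, also without overlap, for *Gmpr*, GMP reductase, at 17.0, 15.8 and 15.1 against 12.6, 12.4 and 11.8 TPM, and *Pyroxd1*, an oxidoreductase, at 13.4, 12.1 and 11.8 against 10.1, 9.97 and 10.3 TPM. Of the 18 lower calls of DESeq2, the largest fall after *Trp53*, *Ephx1* and *Gdf15* was that of *Cyp2d9*, a cytochrome P450, at 43.2, 22.4 and 18.4 against 8.59, 9.34 and 17.9 TPM (edgeR log2 fold change -1.31, SE 0.33, adjusted p = 0.32). *Saa1*, an acute phase protein, was at 1006, 579 and 484 against 326, 274 and 463 TPM (-1.06, SE 0.28), and *Car4*, a carbonic anhydrase of surface colonocytes, at 708, 633 and 459 against 411, 395 and 491 TPM (-0.59, SE 0.15). In these 3 genes replicate 3 was the highest of the ΔIEC libraries. In *Car4* it was above the lowest floxed library by TPM but below it by CPM scaled by TMM (378.5 against 416.1).

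The remaining call, *Gm10736*, is a processed pseudogene of 111593534 to 111593611 on chromosome 13 (minus strand) that copies the ribosomal protein gene *Rpl41*. It had 239, 395 and 299 counts in floxed and 150, 152 and 146 in ΔIEC libraries, without overlap (log2 fold change -1.08, SE 0.15, adjusted p = 0.0182 from edgeR). The call was lost without CBPAAp53-floxed replicate 2 or 3, without CBPAAp53ΔIEC replicate 1 or 2, with edgeR on the 6 libraries and with the 8 libraries numbered under 200. *Rpl41* itself was at 2177, 2828 and 2301 against 2426, 2237 and 2420 TPM (-0.19, SE 0.16). Reads of the copy and the parent gene are hard to tell apart, so the level of *Gm10736* is uncertain.

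On the higher side, the genes with the smallest p included several in which all 3 ΔIEC libraries were raised. *Ldb3*, a Z-disc protein of muscle, was at 4.15, 3.47 and 3.10 TPM in floxed and 6.48, 6.18 and 6.86 TPM in ΔIEC crypts (log2 fold change 0.74, SE 0.12). *Plagl1*, an imprinted zinc finger gene, was at 0.514, 0.477 and 0.396 against 1.04, 1.57 and 1.12 TPM (1.30, SE 0.23). *Cdr2*, a gene that encodes an onconeural antigen, was at 1.87, 2.13 and 1.5 against 3.82, 4.4 and 3.90 TPM (1.00, SE 0.19). Groups did not overlap in any of the 3, and replicate 3 lay among the other ΔIEC libraries. The same held for the X-linked *Otc*, ornithine transcarbamylase of the urea cycle, at 8.58, 7.69 and 8.20 against 16.8, 13.7 and 13.7 TPM (0.71, SE 0.14). *Cbfa2t3*, a transcriptional corepressor, was at 10.4, 10.3 and 8.86 against 19.8, 22.3 and 13.8 TPM (0.78, SE 0.16). All 5 were called by DESeq2 (adjusted p between 0.00396 and 0.0189), and none by edgeR (adjusted p between 0.108 and 0.271). *St6gal2*, a sialyltransferase, had 1, 0 and 2 counts in floxed and 11, 13 and 8 in ΔIEC libraries, a ratio of 10.6 with a 95% interval of 3.3 to 53.9.

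Others of this set were highest in replicates 1 and 2. *H4c9*, a histone H4 gene, was at 2.77, 3.11 and 2.13 TPM against 13, 19.9 and 5.33 TPM (2.08, SE 0.43), and *Troap*, a mitotic protein, at 1.54, 1.40 and 1.1 against 5.64, 5.14 and 1.9 TPM (1.51, SE 0.35). The largest rises among the DESeq2 calls were *Depdc1a*, at 1.63, 0.521 and 1.05 against 6.31, 6.43 and 2.01 TPM, *H4c9* and *Lockd*, a noncoding RNA next to *Cdkn1b*, at 0.243, 0.184 and 0.334 against 1.67, 1.30 and 0.426 TPM. *Pif1*, a helicase, *Ccnf*, cyclin F, and *Ankle1*, a nuclease, had edgeR log2 fold changes of 1.93, 1.9 and 1.9, each with 5.50 TPM or more in replicates 1 and 2 and 3.65 TPM or less in replicate 3. *Hspa1b*, an inducible HSP70, was at 4.73, 4.70 and 3.79 against 15.6, 30.8 and 4.96 TPM. *Gm52958* had its high library elsewhere, at 7.39, 7.83 and 12.3 against 56.9, 23.6 and 25.9 TPM.

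Cell cycle and mitosis genes were the list with the largest median. All 40 were tested, all 40 had a log2 fold change above 0, beside 52.2% of all genes, and all 40 were higher at an unadjusted p under 0.05, beside 7.19% of all genes. The median was 1.41, against 0.02 over all genes. edgeR called none of them and DESeq2 17, all higher, beside 0.39% of all genes. In 9 of the 40, all ΔIEC libraries lay above all floxed libraries by CPM, beside 7.86% of all genes. Their summed level was 314, 210 and 208 TPM in floxed crypts, and 912, 884 and 275 TPM in ΔIEC crypts, so that replicates 1 and 2 were far above the floxed libraries and replicate 3 was within their range.

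*Mki67*, the proliferation antigen and the most abundant of the list, was at 31.2, 12.9 and 20.1 TPM in floxed and 75.7, 81.9 and 25.7 TPM in ΔIEC crypts (log2 fold change 1.39, SE 0.48, adjusted p = 0.342 from edgeR). The smallest p were those of *Nusap1*, a spindle protein, at 4.90, 3.31 and 3.76 against 20.2, 19.5 and 4.90 TPM (1.76, SE 0.44), and *Bub1*, a kinase of the spindle checkpoint, at 2.22, 1.35 and 1.73 against 8.44, 9.37 and 2.30 TPM (1.80, SE 0.48). *Bub1b*, its partner BubR1, was at 5.22, 3.05 and 3.30 against 14.4, 15 and 5.10 TPM (1.46, SE 0.40). Replicates 1 and 2 lay close together in each of these genes and far above the floxed libraries, and replicate 3 lay near the highest floxed library. The adjusted p was 0.32 from edgeR and 0.00887 to 0.0285 from DESeq2 for the last 3. Without replicate 3, 37 of the 40 were called by edgeR, all higher, beside 1.76% of all genes, with a median of 1.80. From the 8 libraries numbered under 200, in which replicate 3 alone stands for CBPAAp53ΔIEC, the median was 0.16. That fit was chosen after values had been seen, so it restates the level of replicate 3 and decides nothing. Without the ΔIEC libraries numbered under 200 the median was 1.80, and edgeR called all 40, beside 1205 of the 14844 genes then tested.

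**Figure D3:**
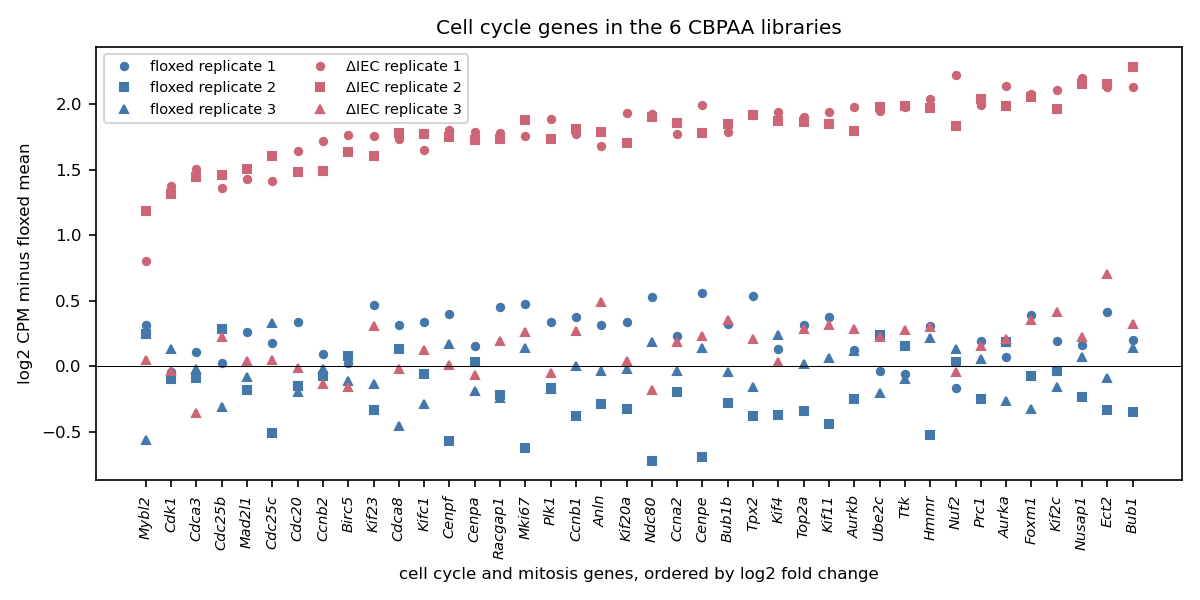
The 40 cell cycle genes stand along the x axis, and the y axis gives the log2 CPM of each of the 6 libraries minus the mean of the floxed libraries. CBPAAp53ΔIEC replicates 1 and 2 (red circles and squares) lie above every floxed library in each gene, and replicate 3 (red triangles) lies near the floxed libraries (blue).

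Promoters of many of these genes share short runs of sequence. One of the runs searched is named for cell cycle genes, so the shares are not independent of how the list was chosen. CCAAT boxes and the cell cycle genes homology region TTTGAA were searched on both strands in the windows, and the letters of one do not contain those of the other. Of the 40 genes 34 have a window. CCAAT was found in 26 of them (76.5%), beside 41.1% of 27025 genes, and TTTGAA in 25 (73.5%), beside 20.2%. Both were in the same window of 22 genes. The windows of *Mki67*, *Bub1b* and *Bub1* are shown 5′ to 3′ on the gene's strand as examples of those with both, with both and with CCAAT only, and the matches on either strand are in capitals:
Mki67, chr7:135716330-135716629, minus strand: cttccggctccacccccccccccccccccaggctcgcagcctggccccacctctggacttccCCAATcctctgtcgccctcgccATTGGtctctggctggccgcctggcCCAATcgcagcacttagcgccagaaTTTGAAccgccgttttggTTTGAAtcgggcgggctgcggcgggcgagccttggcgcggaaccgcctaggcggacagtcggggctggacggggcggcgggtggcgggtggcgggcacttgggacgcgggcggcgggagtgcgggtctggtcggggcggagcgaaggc
Bub1b, chr2:118597961-118598260, plus strand: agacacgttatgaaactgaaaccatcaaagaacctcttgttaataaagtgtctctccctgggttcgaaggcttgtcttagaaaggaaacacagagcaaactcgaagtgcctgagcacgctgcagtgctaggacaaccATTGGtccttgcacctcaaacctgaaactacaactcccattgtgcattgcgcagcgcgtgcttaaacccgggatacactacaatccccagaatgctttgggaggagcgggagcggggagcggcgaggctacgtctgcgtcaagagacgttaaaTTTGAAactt
Bub1, chr2:127831810-127832109, minus strand: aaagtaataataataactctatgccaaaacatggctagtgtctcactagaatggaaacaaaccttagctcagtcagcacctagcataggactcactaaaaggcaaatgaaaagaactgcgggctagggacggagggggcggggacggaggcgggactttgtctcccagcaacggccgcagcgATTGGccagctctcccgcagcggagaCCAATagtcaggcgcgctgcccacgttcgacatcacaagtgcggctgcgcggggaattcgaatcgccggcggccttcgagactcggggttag
*Nusap1*, whose p was the smallest of the list, has neither run of letters in its window. These matches describe the sequence and show no binding.

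DNA replication and repair genes followed the same libraries with smaller differences. Of 40 replication genes, 39 were above 0 and 20 were higher at an unadjusted p under 0.05, beside 52.2% and 7.19% of all genes, with a median of 0.56. *Cdc45*, of the replicative helicase, was at 1.83, 1.33 and 1.05 TPM against 4.34, 3.95 and 1.96 TPM (1.16, SE 0.32), and *Mcm10*, an initiation factor, at 3.55, 3.06 and 2.41 against 6.37, 5.60 and 3.73 TPM (0.67, SE 0.19). *Pcna*, the sliding clamp and most abundant of the list, was at 87.0, 72.5 and 74.6 against 122, 117 and 70.7 TPM. Replicate 3 was the lowest ΔIEC library in all of them and in *Pcna* it was below every floxed library. Of 25 repair genes, 24 were above 0 and 14 were higher at an unadjusted p under 0.05 (median 0.75), beside the same shares of all genes. They included *Fancd2* of the Fanconi anemia pathway, at 0.684, 0.436 and 0.536 against 2.50, 2.33 and 0.754 TPM, and *Brca1*, at 2.17, 0.921 and 1.06 against 4.44, 4.53 and 1.9 TPM. None of these genes was called by edgeR or DESeq2 with all libraries, and 17 replication and 9 repair genes were called higher by edgeR without replicate 3, beside 1.76% of all genes (medians 0.83 and 1.06). With the 8 libraries numbered under 200 the medians were -0.12 and -0.16. Without the ΔIEC libraries numbered under 200 they were 0.83 and 1.06, and edgeR called 33 and 18, beside 1205 of the 14844 genes then tested.

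CBPAAp53ΔIEC replicate 3 took no part in the choice of the 326 genes called without it, but the floxed libraries it is set against did. Of the 262 called higher, replicate 3 lay above all 3 floxed libraries in 91 (34.7%), below all of them in 41 and within their range in 130. Over all 14610 genes it lay above them in 21.3%. Of the lower calls, 63 were among those 14610 genes, and replicate 3 lay below all floxed libraries in 34 (54%), beside 21.3% of all genes. Since the floxed libraries served both in the choice and in this reading, the choice itself can raise these shares above those of all genes. No conclusion is drawn from them. The cell cycle, replication and repair lists, 105 genes in all, held 63 of the 326 genes, which is 60% of the lists beside 2.19% of all genes, and 17 of the 75 DESeq2 calls, which is 16.2% of the lists beside 0.513% of all genes.

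**Figure D4:**
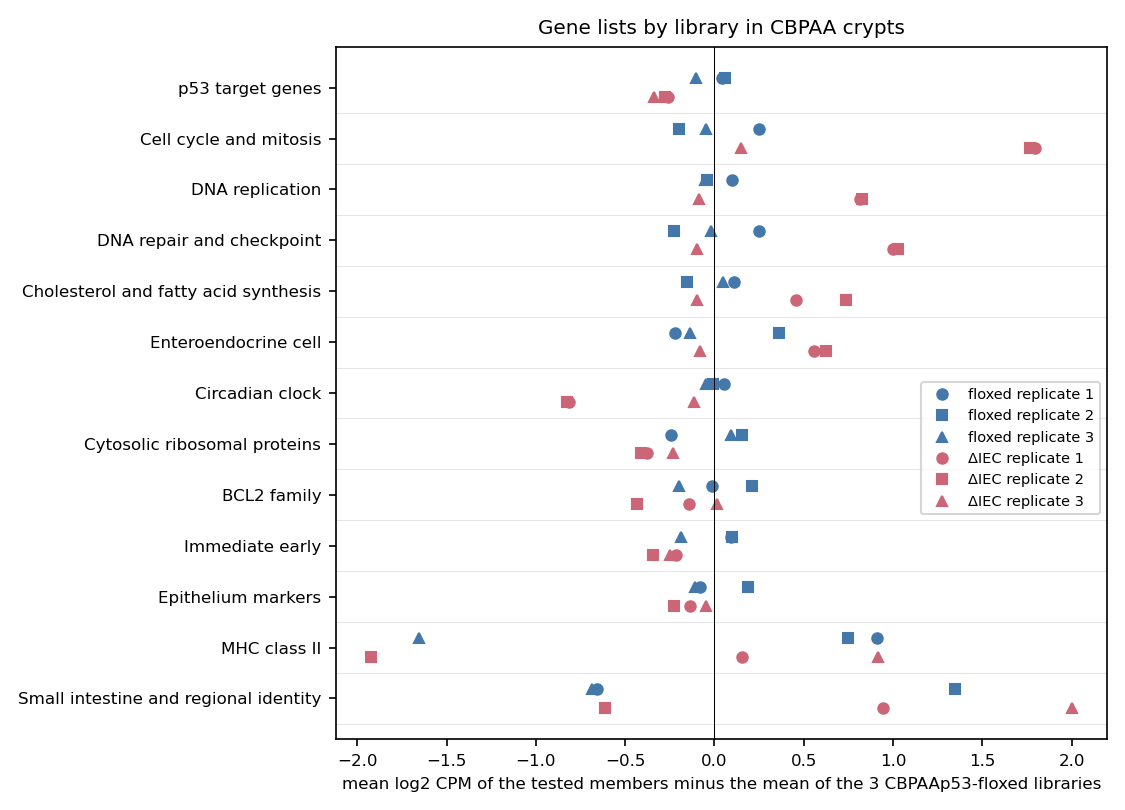
For 13 gene lists on the y axis, the x axis gives the mean log2 CPM of the tested members in each library minus the mean of the 3 floxed libraries. The mean of the p53 targets was lower in all ΔIEC libraries (red) than in any floxed library, although 17 of the 55 tested had a log2 fold change above 0. Cell cycle, replication, repair, lipid synthesis and circadian clock lists were displaced in replicates 1 and 2 (circle and square), and replicate 3 (triangle) lay close to the floxed libraries (blue).

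Clock genes differed between the same libraries. Of 20 circadian genes, 18 were tested, 6 were lower and 1 higher at an unadjusted p under 0.05, beside 5.41% and 7.19% of all genes, and the median was -0.61. Without replicate 3 the median was -0.95, edgeR called 4 lower and 1 higher, beside 0.43% and 1.76% of all genes, and 10 were lower and 3 higher at an unadjusted p under 0.05, beside 8.78% and 11.1%. With the 8 libraries numbered under 200 the median was -0.11. Without the ΔIEC libraries numbered under 200 it was -0.95, and edgeR called 13, beside 1205 of the 14844 genes then tested. *Dbp*, an output factor of the clock, was at 27.1, 34.9 and 20.5 TPM in floxed and 3.35, 4.18 and 15.6 TPM in ΔIEC crypts (-1.94, SE 0.78). *Per2*, a repressor of the loop, was at 9.40, 7.07 and 6.77 against 4.34, 4.63 and 7.60 TPM (-0.60, SE 0.19). *Bmal1*, its activator, ran the other way, at 4.73, 4.2 and 4.45 against 11.6, 10.8 and 5.31 TPM (0.91, SE 0.28, adjusted p = 0.32 from edgeR). Replicate 3 was nearest the floxed libraries in all of them. *Nr1d1*, the most abundant clock gene, was at 116, 108 and 84.1 against 54.5, 46.9 and 99.0 TPM. Summed levels of the list were 526, 490 and 408 against 295, 284 and 463 TPM, and mice were killed from 10 am to 3 pm by the study's methods, while the hour of each mouse is not given in the sources used here. The part of the clock genes' shift in the results was not tested.

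Lipid synthesis and oxidation genes, and some heat shock genes, also differed by library. Of 30 cholesterol and fatty acid synthesis genes, 29 were above 0 and 7 were higher at an unadjusted p under 0.05 (median 0.37), beside 52.2% and 7.19% of all genes. Without replicate 3, edgeR called 4 higher and 21 were higher at an unadjusted p under 0.05 (median 0.55), beside 1.76% and 11.1% of all genes. With the 8 libraries numbered under 200 the median was -0.09. Without the ΔIEC libraries numbered under 200 it was 0.55, and edgeR called 16, beside 1205 of the 14844 genes then tested. *Nsdhl*, a sterol dehydrogenase, was at 25.0, 23 and 20.4 against 38.8, 43.7 and 26.9 TPM (0.54, SE 0.16). *Scd1*, a fatty acid desaturase, was at 10.2, 10.6 and 7.67 against 34.6, 41.4 and 11.7 TPM (1.48, SE 0.51), and *Scd2*, the most abundant gene of the list, at 187, 87.8 and 128 against 425, 495 and 103 TPM. Replicates 1 and 2 were above all floxed libraries in these genes, and replicate 3 of *Scd2* was not. Of 28 tested genes of fatty acid oxidation and ketogenesis, 4 were above 0 and 3 were lower at an unadjusted p under 0.05 (median -0.24), beside 52.2% above 0 and 5.41% lower among all genes. The 3 included *Acadl*, an acyl-CoA dehydrogenase, at 199, 179 and 160 against 110, 107 and 184 TPM. Without replicate 3, edgeR called 5 of the 28 lower, 16 were lower at an unadjusted p under 0.05, beside 0.43% and 8.78% of all genes, and the median was -0.44. Of 19 tested heat shock genes, 5 were higher at an unadjusted p under 0.05, beside 7.19% of all genes, including *Chordc1*, at 7.13, 5.17 and 6.01 against 13.7, 14.0 and 7.91 TPM. The median was 0.10, and DESeq2 called 1 higher, beside 0.39% of all genes. Without replicate 3 the median was 0.23, edgeR called 3 higher, beside 1.76% of all genes, and 7 were higher and 3 lower at an unadjusted p under 0.05, beside 11.1% and 8.78%. *Cirbp*, induced by cold, was at 122, 136 and 110 against 50.5, 54.9 and 98.7 TPM (-0.97, SE 0.44). Of 25 genes of the unfolded protein response, *Herpud1* alone had an unadjusted p under 0.05, on the lower side, beside 5.41% of all genes (190, 187 and 155 against 104, 101 and 181 TPM). Without replicate 3, 2 were higher and 1 lower, beside 11.1% and 8.78% of all genes, and the lower one was called, beside 0.43%.

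Cytosolic ribosomal protein genes were mostly below 0, by a small amount, and none was called by either tool with all libraries. Of 78 tested, 75 were below 0, 36 of them at an unadjusted p under 0.05, beside 5.41% of all genes. The median was -0.36. Without the ΔIEC libraries numbered under 200, a fit chosen after values had been seen, the median was -0.43. edgeR then called 16 of the 78, beside 1205 of the 14844 genes tested in that fit. In 35 of them all ΔIEC libraries lay below all floxed libraries by CPM, beside 7.18% of all genes. *Rpl12* was at 557, 622 and 592 TPM in floxed and 458, 441 and 471 TPM in ΔIEC crypts (-0.51, SE 0.18), and *Rps12* at 557, 673 and 608 against 427, 435 and 487 TPM (-0.59, SE 0.21). Their groups did not overlap, and here replicate 3 lay with the other ΔIEC libraries, although the adjusted p from edgeR was 0.334 for both. *Rplp1*, the most abundant, was at 6300, 7762 and 6721 against 5988, 5744 and 6342 TPM. Summed levels were 65500, 77490 and 67660 against 59590, 57640 and 64120 TPM, and reads of these genes can be shared with their pseudogenes. The 13 mitochondrially encoded genes had a median of 0.01 and none had an unadjusted p under 0.05.

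No gene of the epithelial lineage lists was called by edgeR with all libraries. Counts at an unadjusted p under 0.05 stand beside 7.19% of all genes on the higher and 5.41% on the lower side, and beside 11.1% and 8.78% without replicate 3. Of 18 tested enteroendocrine genes, 17 were above 0, beside 52.2% of all genes, and 2 were higher at that threshold (median 0.30). Without replicate 3, 2 were called higher, beside 1.76% of all genes, and 4 were higher at that threshold (median 0.50), and with the 8 libraries numbered under 200 the median was -0.18. *Neurod1*, a transcription factor of that lineage, was at 1.99, 2.59 and 1.56 TPM in floxed and 5.58, 4.51 and 3.67 TPM in ΔIEC crypts, without overlap (1.01, SE 0.23, adjusted p = 0.0492 from DESeq2 and 0.32 from edgeR). *Chgb*, chromogranin B and their most abundant, was at 143, 233 and 176 against 295, 233 and 162 TPM. Of 17 tuft cell genes, 3 were lower at an unadjusted p under 0.05, including *Hpgds*, at 4.29, 3.83 and 4.84 against 3.15, 3.23 and 3.51 TPM (median -0.24). Of 21 tested goblet cell genes, 2 were lower at that threshold, *Bcas1* and *Retnlb* (median -0.11), and without replicate 3, 4 were higher and 6 lower. *Retnlb*, an antimicrobial protein, varied widely, at 2621, 1203 and 4904 against 875, 295 and 1850 TPM. *Guca2a*, guanylin, was at 7136, 11300 and 6475 against 6491, 7078 and 7216 TPM. Of 29 tested absorptive colonocyte genes, 1 was higher and 3 were lower at that threshold, and the median was -0.09. Without replicate 3, 2 were higher and 6 lower, of which edgeR called 1 higher and 2 lower, beside 1.76% and 0.43% of all genes, and the median was -0.16. *Trpm6*, a magnesium channel, was at 20.8, 14.8 and 12.3 against 32.0, 31.2 and 20.3 TPM (0.68, SE 0.17, adjusted p = 0.0416 from DESeq2 and 0.32 from edgeR), and the 3 lower with all libraries were *Car4* and *Saa1*, described above, and *Scnn1a*, a subunit of the epithelial sodium channel.

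Stem cell and Wnt genes were not called by either tool. Of 28 tested, 2 were higher and 2 lower at an unadjusted p under 0.05 (median 0.11), near the 7.19% and 5.41% of all genes. Without replicate 3, 5 were higher and 1 lower, beside 11.1% and 8.78%. *Lgr5*, the stem cell receptor for R-spondin, was at 5.56, 3.92 and 4.97 TPM in floxed and 6.51, 5.61 and 5.79 TPM in ΔIEC crypts (0.18, SE 0.13, adjusted p = 0.541 from edgeR). *Tert*, telomerase, was at 1.82, 1.02 and 1.52 against 1.17, 1.11 and 0.737 TPM, *Notum*, a Wnt inhibitor, at 0.250, 0.221 and 0.241 against 0.386, 1.12 and 0.804 TPM, and *Cdx1*, the most abundant of the list, at 554, 655 and 446 against 583, 629 and 548 TPM. The groups of *Notum* did not overlap, at levels of few counts, and those of the other 2 did.

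*Vcan*, the proteoglycan versican, was at 0.250, 0.203 and 0.254 TPM in floxed and 0.552, 0.878 and 0.523 TPM in ΔIEC crypts, from 18, 22 and 19 counts against 43, 66 and 43. Every ΔIEC library was above every floxed library, and the log2 fold change was 1.33 (SE 0.31, adjusted p = 0.32 from edgeR and 0.0422 from DESeq2). Of 32 listed genes of versican, its proteases and chondroitin sulfate, 16 were tested and 3 were higher at an unadjusted p under 0.05, beside 7.19% of all genes, with a median of 0.27. The other 2 were *Chsy1*, a chondroitin synthase, at 1.97, 1.18 and 1.39 against 2.93, 3.27 and 2.27 TPM, and *Chst11*, a sulfotransferase, at 4.95, 5.83 and 5.04 against 9.30, 6.23 and 7.51 TPM. *Sdc4*, a syndecan and the most abundant of the list, was at 279, 265 and 224 against 257, 285 and 232 TPM. Without replicate 3, edgeR called 1 of the list higher, beside 1.76% of all genes. At an unadjusted p under 0.05, 3 were higher in that fit, beside 11.1% (median 0.30).

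Growth factor signalling was represented by 2 lists. Of 20 ERK feedback and ETV genes, 2 were higher at an unadjusted p under 0.05, beside 7.19% of all genes, and 4 without replicate 3, beside 11.1%, with 1 of them called, beside 1.76%. The 2 were *Etv5*, an ETS factor, at 14.8, 13.7 and 13.7 against 34.0, 33.1 and 18.4 TPM (0.88, SE 0.26), and *Spry4*, a feedback inhibitor, at 1.18, 0.812 and 0.569 against 2.23, 1.94 and 1.29 TPM. Both were without overlap and lowest in replicate 3 among the ΔIEC libraries. None of 15 tested EGFR family genes reached an unadjusted p under 0.05 with all libraries, and 1 was higher and 3 lower without replicate 3, beside 11.1% and 8.78% of all genes. Their most abundant, *Erbb3*, was at 269, 196 and 182 against 168, 146 and 255 TPM.

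Genes of the BCL2 family and immediate early genes were mostly below 0, while 52.2% of all genes were above it. Of 16 tested BCL2 family genes, 14 were below 0 and 6 were lower at an unadjusted p under 0.05 (median -0.29), beside 5.41% of all genes. They were *Bcl2l14*, at 55.3, 46.6 and 46.0 against 39.2, 41.2 and 44.6 TPM, and the BH3 genes *Pmaip1*, *Bad*, *Bik*, *Bmf* and *Bbc3*. *Pmaip1*, which encodes NOXA, was at 27.7, 18.6 and 15.4 against 15.2, 11.2 and 18.2 TPM (-0.58, SE 0.21). Of 27 tested immediate early genes, 25 were below 0 and 8 were lower at an unadjusted p under 0.05 (median -0.28), beside the same share, including *Dusp1*, a MAP kinase phosphatase, at 27.0, 21.9 and 13.2 against 11.4, 10.1 and 16.7 TPM (-0.80, SE 0.22). None of these passed the adjusted threshold in either tool with all libraries. Without replicate 3, 5 immediate early genes were lower at an unadjusted p under 0.05, beside 8.78% of all genes, and edgeR called 2, beside 0.43%. Of 40 interferon response genes, 15 were above 0, and 4 were higher and 7 lower at an unadjusted p under 0.05, beside 7.19% and 5.41% of all genes (median -0.09, and 0.01 without CBPAAp53-floxed replicate 1). Without CBPAAp53ΔIEC replicate 3, 4 were higher and 2 lower, beside 11.1% and 8.78% of all genes. The largest was *Gbp2*, a guanylate binding protein, at 184, 32.0 and 11.3 against 6.27, 6.96 and 12.4 TPM, in which floxed replicate 1 set the mean, while *Oas2*, an antiviral sensor, was at 3.88, 1.65 and 1.04 against 4.80, 7.31 and 4.19 TPM. Of 29 tested NF-κB genes, *Il1rn* and *Icam1* were lower and *Nfkb1* higher at that threshold (median -0.07), beside 5.41% and 7.19% of all genes. Without replicate 3, 3 were higher and 2 lower, beside 11.1% and 8.78% of all genes, and edgeR called 1 lower, beside 0.43%. Of 17 tested mucosal defence genes, 3 were lower at that threshold, *Saa1*, *Gsdmc2* and *Retnlb* (median -0.22), beside 5.41% of all genes. DESeq2 called 1 of the 17 lower, beside 0.123% of all genes, and edgeR without replicate 3 called 1 lower, beside 0.43%. Of 38 tested xenobiotic genes, *Ephx1* was called by edgeR, beside 0.0274% of all genes. At an unadjusted p under 0.05, 4 of the 38 were higher and 4 lower, beside 7.19% and 5.41% of all genes. *Ugt2b5*, a glucuronosyltransferase, was at 43.8, 55.1 and 46.8 against 86.6, 71.6 and 66.6 TPM (0.48, SE 0.13).

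The effect of the same deletion was also measured in CBPWT crypts, from the other 6 libraries, which share the filter and the estimate of the spread with the CBPAA comparison. There edgeR called 460 genes (3.15% of those tested), 335 higher and 125 lower (2.29% and 0.856%). All 4 genes called in CBPAA crypts were among the 460, but *Gm10736*, lower in CBPAA crypts, was higher there. The log2 fold changes in CBPWT crypts were -2.64 for *Trp53* and -1.79 for *Ephx1*. *Eda2r* had 18, 23 and 36 counts in CBPWTp53-floxed and 0, 1 and 0 in CBPWTp53ΔIEC libraries, and *Phlda3* had 7, 23 and 23 against 0, 2 and 2. The differences between the 2 effects of *Trp53*, *Ephx1*, *Eda2r* and *Phlda3*, tested in the same fit, had adjusted p of 0.738 to 0.955 in edgeR. Of the 75 DESeq2 calls in CBPAA crypts, 53 (70.7%) were also called in CBPWT crypts, beside 871 of all 14610 genes tested. The 53 are 6.08% of those 871. Of the 55 p53 targets tested, 14 were lower and 7 higher in CBPWTp53ΔIEC crypts at an unadjusted p under 0.05, beside 8.28% and 12.6% of all genes, and edgeR called 8 lower and 1 higher, beside 0.856% and 2.29%. For the difference between the effects, 2 of them were above and 4 below 0 at that threshold, beside 5% and 5.28% of all genes, and their median log2 fold change was -0.04 in CBPWT crypts. Cell cycle genes had a median of 1.89 in CBPWT crypts, and their summed level was 425, 1114 and 1120 TPM in the 3 CBPWTp53ΔIEC libraries and 240, 275 and 218 TPM in the CBPWTp53-floxed libraries. No cell cycle gene had an unadjusted p under 0.05 for the difference between the effects. Of the 40 replication genes, whose median was 1.15 in CBPWT crypts, 13 had a lower log2 fold change in CBPAA crypts at an unadjusted p under 0.05, beside 5.28% of all genes, and the smallest adjusted p among them was 0.481 in edgeR. These counts rest on all 12 libraries, replicate 3 of CBPAAp53ΔIEC included. The number of calls in CBPWT crypts ranged from 1 to 906 with 1 library left out.

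A difference between the effects was called for 1 gene of 14610 (0.00684%) in edgeR and for 30 in DESeq2, beside 1502 and 1524 at an unadjusted p under 0.05. The gene was *Gm10736*, which was at 354, 374 and 361 TPM in CBPWTp53-floxed and 504, 501 and 633 TPM in CBPWTp53ΔIEC crypts, against 616, 674 and 741 and 357, 375 and 329 TPM in the CBPAA groups. It was lower in ΔIEC than in floxed crypts of CBPAA mice and higher in those of CBPWT mice. The difference was -1.71 (SE 0.21, adjusted p = 0.0222 from edgeR). This call was lost with the replicate block and without most of the single libraries, and the level of the pseudogene is uncertain. The next 4 genes had an adjusted p of 0.388. Among them, *Arhgap20* was at 8.49, 5.97 and 6.58 against 10.0, 12.1 and 12.4 TPM in CBPAA crypts, and at 10.9, 12.1 and 14.1 against 4.80, 8.68 and 10.0 TPM in CBPWT crypts. *Plagl1* was at 1.14, 0.957 and 1.01 against 0.558, 0.897 and 0.799 TPM in CBPWT crypts, so that its low group was CBPAAp53-floxed. The difference was 1.25 (SE 0.22) for *Arhgap20* and 1.73 (SE 0.33) for *Plagl1*, and the remaining 2 were *Gm44292*, which overlaps *Mxd1*, and *Klhl42*, a kelch-like gene, with differences of 1.91 (SE 0.33) and 1.11 (SE 0.21). *Vcan* had a log2 fold change of -0.23 in CBPWT crypts and a difference of 1.56 (SE 0.42, adjusted p = 0.482 from edgeR), and *Neurod1* one of 1.36 (SE 0.32, adjusted p = 0.482).

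**Figure D5:**
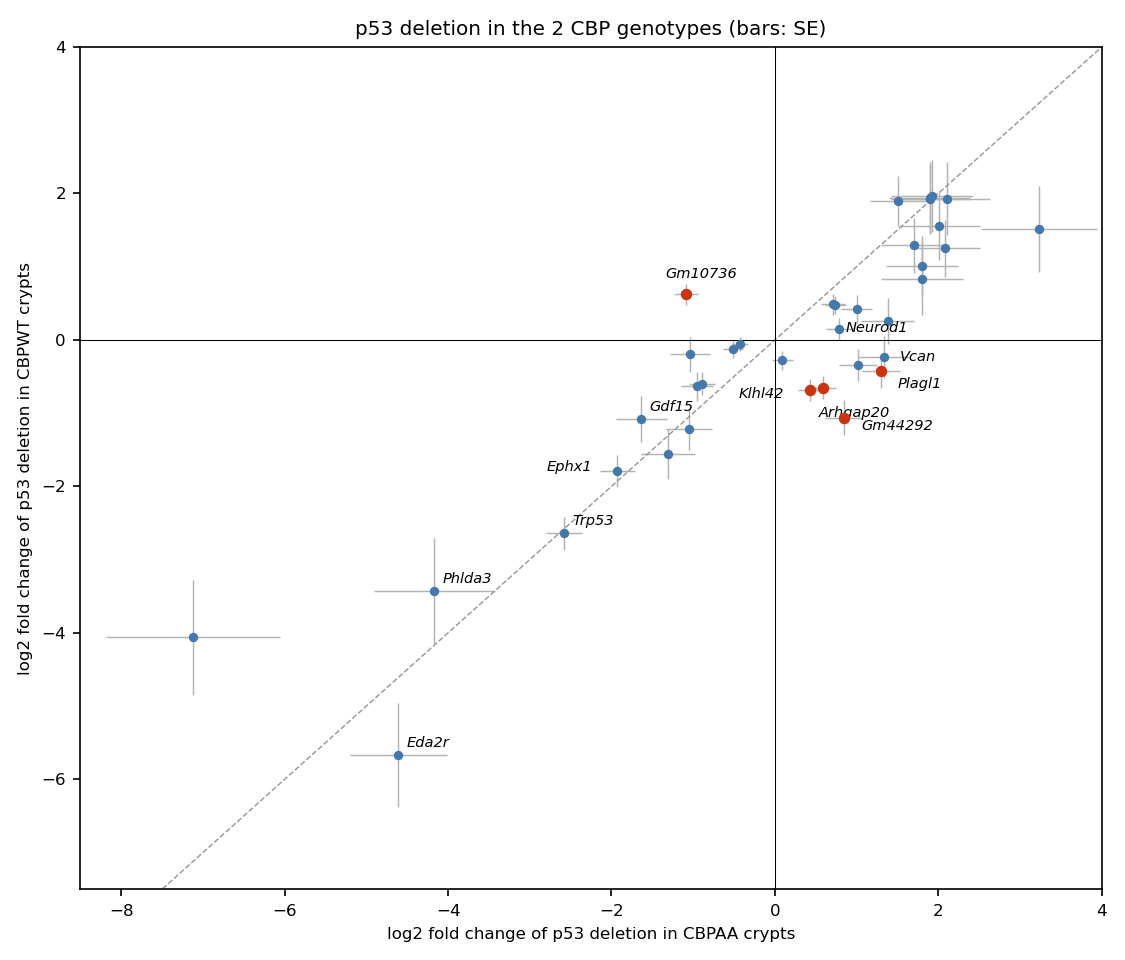
Named genes are placed by the log2 fold change of p53 deletion in CBPAA (x axis) and in CBPWT crypts (y axis), with SE bars, and the dashed line marks equal values. *Trp53* and *Ephx1* lie on or near the line, *Eda2r* and *Phlda3* lie within about 1 unit of it with wide bars, and the 5 genes with the smallest p for the difference (red) lie on opposite sides of 0 in the 2 genotypes.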

How the data were processed

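The series holds 12 RNA libraries of colonic crypts, with 3 mice in every one of 4 groups, which were read from the sample titles. The files hold deposited read counts per gene and TPM that the authors derived from them. Per the submitters' processing notes, fastp 0.20.0, FastQC 0.11.9, HISAT2 2.1.0, SAMtools 1.9 and featureCounts of Subread 2.0.1 were used with GRCm38, and the strand setting of the counting is not given in the sources used here. The deposited tables also hold 15 columns of 5 comparisons of the authors (fold changes and p-values), which were not used, and 0 columns of other samples.

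Of 55471 genes, the 14610 that passed edgeR's filterByExpr with a minimum count of 10 were tested on the deposited counts in 1 fit of all 12 libraries (edgeR 4.0.16, TMM, robust quasi-likelihood test, R 4.3.3, limma 3.58.1), with Benjamini-Hochberg adjustment over all genes tested. DESeq2 1.42.0, other filters and scalings, a replicate block, the 6 libraries alone and each library left out were alternatives, and fits by the number in the library names were added after seeing the data. Non-overlap in lists was counted on CPM scaled by TMM. Ratios of low counts carry exact 95% intervals, and the floor is 3 counts over a group, for counting error only. Totals were 12176634 to 18029125 counts per library in the 6 CBPAA libraries, and TPM carry that depth. Python 3.11.15, scipy 1.17.1, pandas 2.3.3 and matplotlib 3.10.9 were used for summaries, sequence searches and plots, and the fit was tested on simulated data. Promoter windows are from RefSeq (GRCm38.p6), gene positions from GENCODE (GRCm38).

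The text names *Trp53*, *Crebbp* and *Vcan*, each called gene, the 12 higher and 12 lower genes with the smallest p, the 8 largest rises and falls that DESeq2 called, the 3 smallest p and the most abundant gene of each of 35 lists, and the 5 smallest p of the difference between the effects, with some left out for length or not reported here. The members, lists and tests were chosen with earlier results of these data known. Replicates are single mice, so p-values measure the spread between mice and libraries together.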

Additional observations from a re-analysis of the deposited data

Results flagged for a closer look

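*Gm10736*, the processed pseudogene of *Rpl41*, differed in opposite directions between the 2 CBP genotypes, with a difference of -1.71 on the log2 scale (SE 0.21, adjusted p = 0.0222 from edgeR, interaction contrast). It was lower in 3 of 3 CBPAAp53ΔIEC libraries than in every CBPAAp53-floxed library (log2 fold change -1.08) and higher in 3 of 3 CBPWTp53ΔIEC libraries than in every CBPWTp53-floxed library (0.62, adjusted p = 0.0391 from edgeR). Reads shared with *Rpl41* make its level uncertain, and the call was lost without any single library except CBPAAp53-floxed replicate 1 and CBPWTp53ΔIEC replicates 1 and 2.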

How the results depend on the processing

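The 4 genes called in CBPAA crypts became 75 with DESeq2 on all 12 libraries, 11 with no filter on low counts, 2 with the replicate block, 1 with edgeR and 116 with DESeq2 on the 6 libraries alone, and 1 to 326 with 1 library left out (2 without CBPAAp53-floxed replicate 3, 1 without CBPAAp53ΔIEC replicate 1, 326 without CBPAAp53ΔIEC replicate 3). In CBPWT crypts the 460 calls became 871 with DESeq2 on all 12 libraries, 32 with the replicate block, 723 with edgeR and 987 with DESeq2 on their 6 libraries, and 1 to 906 with 1 library left out. The counts were 7, 2 and 1 without CBPWTp53-floxed replicates 1, 2 and 3, 906, 7 and 4 without CBPWTp53ΔIEC replicates 1, 2 and 3, 253 without CBPAAp53-floxed replicate 3 and 735 without CBPAAp53ΔIEC replicate 3. The 1 call of the difference became 30 with DESeq2, 2 with no filter, 0 with the replicate block and 0 to 1 with 1 library left out. In the fits by library number, chosen after seeing the data, the counts were 4, 311 and 0 with the 8 libraries numbered under 200, and 1205, 1370 and 0 without the 2 ΔIEC libraries numbered under 200. The cause of these shifts was not tested. With DESeq2 size factors in edgeR the counts were 4, 468 and 1, and with at least 10 counts in every library 3, 463 and 1.

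Replicate numbers did not pair the libraries: deviations of same-numbered libraries correlated with r of -0.118, -0.362 and -0.138 in CBPAA and 0.057, 0.0543 and 0.0504 in CBPWT crypts, so the block is given here only. No named gene reversed past the threshold. *Trp53* kept its call in every alternative (adjusted p up to 0.00986 in edgeR and DESeq2). *Ephx1* lost it without CBPAAp53ΔIEC replicate 1 and with edgeR on 6 libraries (adjusted p = 0.0623 and 0.0815). *Eda2r* lost it with the block, without CBPAAp53-floxed replicate 3, without CBPAAp53ΔIEC replicate 1, with edgeR on 6 libraries and with the 8 libraries (adjusted p from 0.0603 to 0.236). *Gm10736* lost it with the block, without CBPAAp53-floxed replicates 2 or 3, without CBPAAp53ΔIEC replicates 1 or 2, with edgeR on 6 libraries and with the 8 libraries (adjusted p from edgeR 0.0667 to 0.324). DESeq2 on all 12 libraries did not call *Eda2r* either, but that fit is not among the 5 in which its call was lost. No adjusted p from DESeq2 is given here for *Eda2r*, so this is not read as a negative result. Of 153 named genes 28 changed sign in some alternative, none of them called, and of 34 list medians 20 did. The median of all genes was 0.015 with TMM and 0.004 with size factors. Each group held 3 mice, and the genes tested had a median of 20.1 CPM.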
